A study of Mus musculus with 32 samples.

Results

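The comparison described here is that of resting mouse livers with and without Rps6, at 0 h of a partial hepatectomy series. It rests on 8 of the 32 livers of the series, chosen by their labels: 4 labelled for the Mx-Cre transgene (Cre plus) and 4 labelled as lacking it (Cre minus). All were from male C57BL/6 mice aged 3 months, and both genotypes carried the floxed Rps6 allele. Cre was driven by the Mx promoter, which answers to interferon and is not specific to hepatocytes. Per the design text, deletion was induced with polyinosinic-polycytidylic acid, which mimics viral double-stranded RNA and thereby raises interferon. The sources used here do not give how long before sampling it was injected, nor whether the Cre minus controls received it. The labels name separate liver samples and not separate mice, so p-values here cover only the spread among the samples.

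Rps6 encodes ribosomal protein S6, a component of the small (40S) ribosomal subunit and a long-known target of growth factor signalling through S6 kinase. Cells that cannot assemble a ribosomal subunit are known to accumulate free ribosomal proteins that bind Mdm2, the ubiquitin ligase that keeps p53 low, so that p53 and its target genes are switched on. The resting adult liver hardly divides, but its hepatocytes translate large amounts of secreted protein and can re-enter the cell cycle after tissue loss.

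Liver transcripts dominated all 8 arrays. Albumin (Alb) had a log2 value of 13.77 ± 0.01 (SD, n = 4) in Cre minus and 13.76 ± 0.02 (SD, n = 4) in Cre plus livers. Apolipoprotein A-I (Apoa1) stood at 13.87 ± 0.12 and 13.80 ± 0.10 (SD, n = 4 each). Pairs of arrays correlated at 0.9867 to 0.9925 within a genotype and at 0.9829 to 0.9935 between genotypes. Such values mostly follow the spread of levels between genes, so they cannot show how many genes differed between genotypes. Each genotype had 2 arrays in each of the labelled batches, PHX2 and PHX3, and batch itself changed 257 probe sets. A measure of RNA integrity, the 3′ minus 5′ difference of the Actb control probe sets, was 0.89 to 1.07 in Cre minus and 1.03 to 1.09 in Cre plus livers. The same measure for Gapdh was 0.16 to 0.32 and 0.29 to 0.4. Within each batch both Cre plus livers had the higher Gapdh measure, at 0.29 and 0.29 against 0.21 and 0.16 in PHX2 and at 0.4 and 0.35 against 0.32 and 0.29 in PHX3, and its part in the results below was not tested.

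Few genes differed. Of 8803 probe sets tested, 26 passed a Benjamini-Hochberg adjusted p of 0.05 (0.295%), 20 of them higher in Cre plus livers (0.227%) and 6 lower (0.0682%). At an unadjusted p under 0.05 there were 673 of the 8803, 371 higher and 302 lower. The counts at that threshold in the gene lists below are to be read beside this share. Those lists were chosen with earlier results of these data known, so their counts and medians are no separate support. The 26 represented 19 named genes, while 2 probe sets had no gene name here and 2 were annotated to several genes. The differences of all 26 had the same sign within both batches, and only 4 reached 2-fold. In 24 of the 26 the ranges of the genotypes did not overlap. The 26 were chosen by a test on these same values, so their signs and ranges are no separate support. Over all tested probe sets, every Cre plus liver lay above every Cre minus liver for 169 (1.92%) and below for 116 (1.32%). With each of the 8 livers left out in turn, 11 of the 26 kept their call every time and 15 lost it at least once, with highest adjusted p-values between 0.0508 and 0.179. The number called fell to 11 without Cre plus B, 13 without Cre minus C, 14 without Cre minus B, 14 without Cre plus D and 17 without Cre minus D.

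**Figure D1:**
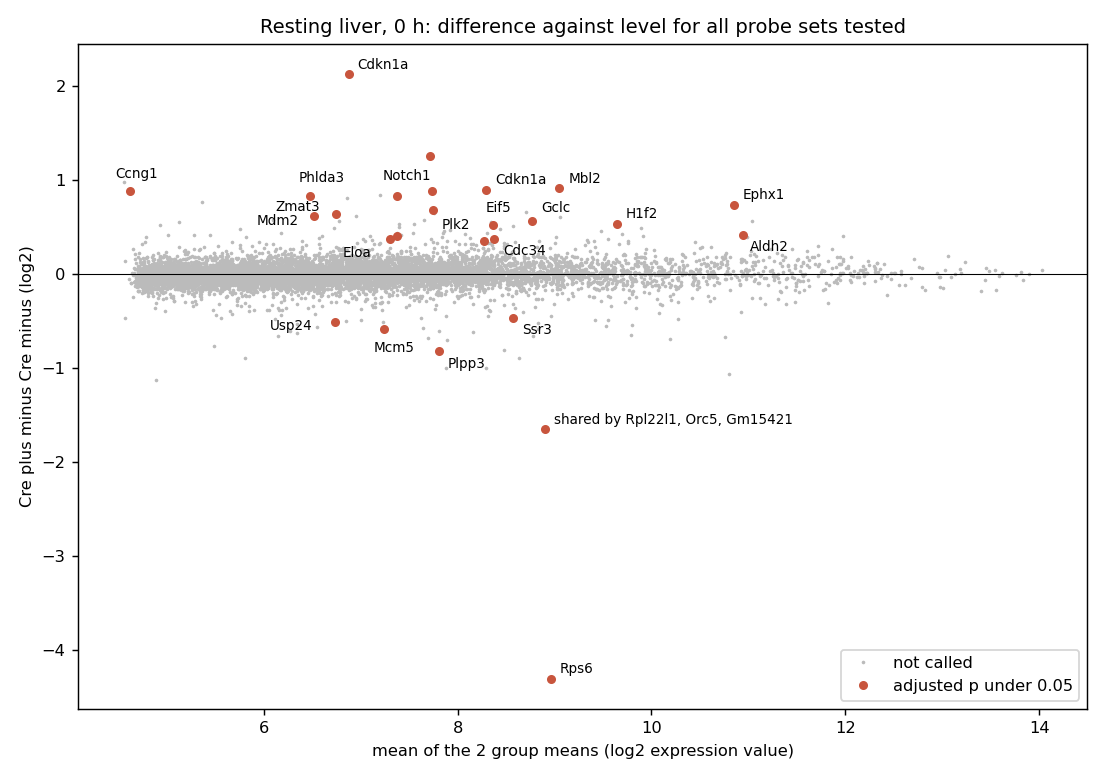
The vertical axis gives the log2 difference, Cre plus minus Cre minus, and the horizontal axis the mean of the group means, for all 8803 probe sets tested. Rps6 and the upper Cdkn1a point stand far from the cloud, which is centred on 0, and most of the other 26 called probe sets (red) lie within 1 log2 unit of it. The 2 red points without a label have no gene name here, and the second probe sets of Eloa and Aldh2 are also unlabelled.

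The targeted transcript was strongly reduced in every Cre plus liver. The Rps6 probe set read 11.03, 11.16, 11.27 and 10.99 in Cre minus livers A to D, and 7.27, 6.97, 6.76 and 6.24 in Cre plus livers A to D. No Cre plus value came near the Cre minus range. The difference was -4.30 on the log2 scale (SE 0.15, adjusted p = 1.41e-06), which is 19.8-fold lower. Cre plus D had the least signal and Cre plus A the most, and the difference was -4.58 within PHX2 and -4.03 within PHX3. The probe set is also annotated to a pseudogene, Rps6-ps4. Residual signal from undeleted cells, from the pseudogene or from other RNA cannot be told apart. These are bulk samples, in which fewer cells of a type and less RNA per cell cannot be told apart either.

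**Figure D2:**
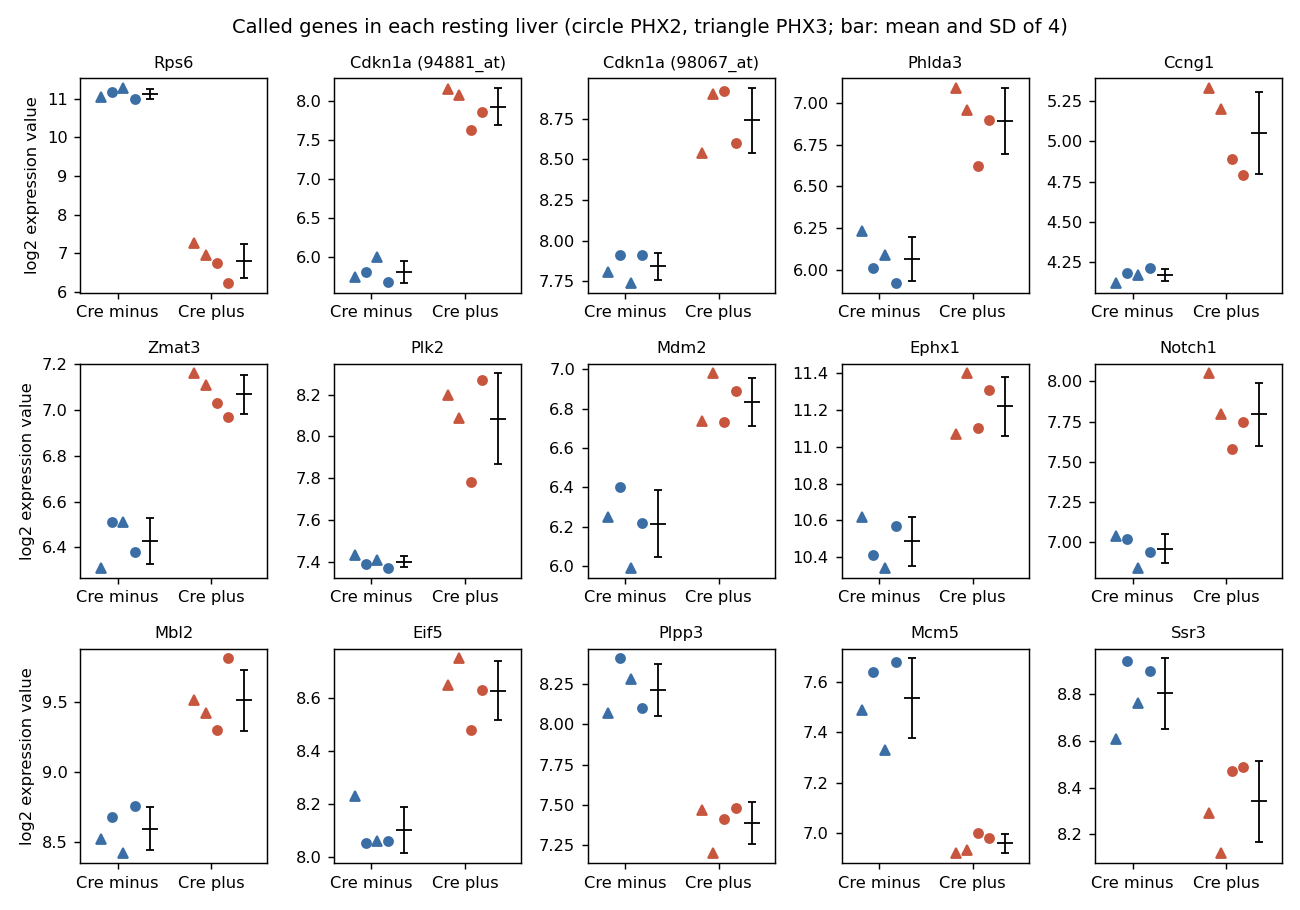
Each panel gives the log2 expression value of 1 called probe set in the 4 Cre minus (blue) and 4 Cre plus (red) livers, as circles for batch PHX2 and triangles for PHX3, with the mean and SD of each group in black. In all 15 panels the groups do not overlap. Vertical axes differ between panels and do not start at 0.

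Targets of p53 made up 7 of the 19 called named genes, and all 7 were higher in Cre plus livers. The counts and medians here include Ccng1, which entered the test through the Cre plus livers alone and so is no support for a rise. The list of p53 targets had 38 entries, of which 21 were tested, 7 rose and none fell. Over all 6502 genes tested, each by 1 probe set, 15 rose and 3 fell. The list was chosen with earlier results of these data known, so this contrast is no separate support. At an unadjusted p under 0.05, 10 of the 21 were higher and 1 lower. The median difference of the 21 was 0.18, against 0.00 over all genes, and 17 of the 21 had a positive difference. That median ranged from 0.07, without Cre plus D, to 0.24, with only probe sets above the array median tested, and it was positive in all 21 other settings. Averaged over the 21 genes, the Cre minus livers had 6.85 to 6.93 and the Cre plus livers 7.14 to 7.19.

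Promoter sequence is shown for the 3 of these genes whose window held a match to the p53 half-site, the decamer that p53 binds as a pair. The windows ran from 250 bases before to 50 bases after the start of transcription, from RefSeq on GRCm38.p6, and 6 of the 7 genes had one. The half-site was searched by its published consensus, which reads the same on both strands. Of all 32851 windows, 8.36% held at least 1 half-site, while 0.0731% held a pair separated by 0 to 13 bases. Capitals mark the matches, and each sequence is given in the direction of transcription. The Mdm2 stretch lies at chr10:117710890-117710989 on the minus strand, that of Ccng1 at chr11:40755417-40755516 on the minus strand, and that of Cdkn1a at chr17:29090861-29090982 on the plus strand.
Mdm2: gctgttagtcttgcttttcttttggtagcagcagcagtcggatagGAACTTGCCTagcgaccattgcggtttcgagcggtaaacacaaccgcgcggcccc
Ccng1: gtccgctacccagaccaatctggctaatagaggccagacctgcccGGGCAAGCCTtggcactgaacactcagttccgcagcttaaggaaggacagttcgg
Cdkn1a: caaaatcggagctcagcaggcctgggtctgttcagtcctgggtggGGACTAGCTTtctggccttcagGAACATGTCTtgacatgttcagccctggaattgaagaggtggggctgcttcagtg
The match began 186 bases before the start in Mdm2 and 185 bases before it in Ccng1. Cdkn1a held a pair, beginning 73 and 51 bases before the start with a spacer of 12 bases. A match describes these letters and does not show that p53 binds there.

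Cdkn1a, which encodes the cyclin-dependent kinase inhibitor p21 and arrests the cell cycle, had the largest rise. Its probe set 94881_at read 5.74, 5.81, 6.00 and 5.68 in Cre minus livers A to D and 8.16, 8.08, 7.63 and 7.86 in Cre plus livers A to D. The lowest Cre plus liver lay more than 1 log2 unit above the highest control. The difference was 2.13 (SE 0.09, adjusted p = 4.14e-06), or 4.37-fold. A second Cdkn1a probe set, 98067_at, read 7.81, 7.91, 7.74 and 7.91 in the controls against 8.54, 8.90, 8.92 and 8.60, a difference of 0.90 (SE 0.10, adjusted p = 0.00541). Both probe sets separated the genotypes, with different sizes of change.

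Phlda3, an inhibitor of Akt at the membrane, rose from 6.23, 6.01, 6.09 and 5.92 in Cre minus livers A to D to 7.09, 6.96, 6.62 and 6.90 in Cre plus livers A to D. The difference was 0.83 (SE 0.08, adjusted p = 0.003). Zmat3, a zinc finger RNA-binding protein, read 6.31, 6.51, 6.51 and 6.38 against 7.16, 7.11, 7.03 and 6.97, a difference of 0.64 (SE 0.07, adjusted p = 0.00541). Neither gene overlapped between genotypes, and both kept their call whichever liver was left out.

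Ccng1, which encodes the atypical cyclin G1, was near the floor of the arrays in all controls, at 4.12, 4.18, 4.17 and 4.21. In Cre plus livers A to D it read 5.33, 5.20, 4.89 and 4.79, a difference of 0.89 (SE 0.10, adjusted p = 0.00541). No control array had it above the array's own 30th percentile, which lay at 4.72 to 4.78 in the controls, so it entered the test through the Cre plus livers alone. It was the only one of the 21 p53 targets tested for which this was so. Values this close to the floor understate a fold change.

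Mdm2, itself a p53 target that closes the feedback loop, read 6.25, 6.40, 5.99 and 6.22 in Cre minus and 6.74, 6.98, 6.73 and 6.89 in Cre plus livers. The difference was 0.62 (SE 0.09, adjusted p = 0.0283), and the groups did not overlap. Leaving out a liver ended the Mdm2 call in 6 of 8 cases, with an adjusted p of up to 0.133 without Cre minus D. Plk2, a polo-like kinase induced by stress, read 7.43, 7.39, 7.41 and 7.37 in the controls, an SD of only 0.03. It reached 8.20, 8.09, 7.78 and 8.27 in Cre plus livers, a difference of 0.68 (SE 0.10, adjusted p = 0.022). Cre plus C was the lowest of the 4 and still above all controls, and the Plk2 call was lost in 6 of 8 cases, with an adjusted p of up to 0.0999 without Cre minus D.

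Ephx1, microsomal epoxide hydrolase, is listed both as a p53 target and as a target of the oxidative stress factor NRF2. It read 10.62, 10.41, 10.34 and 10.57 in Cre minus and 11.07, 11.40, 11.10 and 11.31 in Cre plus livers, without overlap. The difference was 0.74 (SE 0.10, adjusted p = 0.0158), and the call was lost without Cre minus B (adjusted p = 0.0842), Cre minus C (0.0589), Cre plus B (0.0508) or Cre plus D (0.0615).

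The other 14 tested p53 targets did not pass. Among them Ercc5, a DNA repair endonuclease, was above every control in every Cre plus liver, with a difference of 0.20 (adjusted p = 0.378). Ei24, Btg2 and Gadd45a, genes tied to apoptosis or growth arrest, had differences of 0.34, 0.28 and 0.18 with overlapping groups. Sesn1, a sestrin that restrains mTORC1, had -0.29 (adjusted p = 0.302), while Perp, Rrm2b and Polk lay between -0.07 and 0.04.

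Notch1, a receptor whose cleaved intracellular part acts in the nucleus, was higher in Cre plus livers. It read 7.04, 7.02, 6.84 and 6.94 in Cre minus livers A to D and 8.05, 7.80, 7.58 and 7.75 in Cre plus livers A to D. The lowest Cre plus value exceeded the highest control by more than the range of the controls. The difference was 0.83 (SE 0.09, adjusted p = 0.00541), with 0.68 within PHX2 and 0.98 within PHX3. A second, dimmer Notch1 probe set, 162204_r_at, read 5.04, 4.80, 5.06 and 5.04 against 5.54, 5.32, 5.15 and 5.08. Its groups did not overlap either, but the difference of 0.29 did not pass (adjusted p = 0.339).

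The rest of the Notch pathway did not pass the test. Of 34 entries 21 were tested, and Notch1 was the only call, with a median difference of 0.01 over the list. At an unadjusted p under 0.05 there were 5 of the 21, Notch1 included, 4 higher and 1 lower. The other receptors Notch2 and Notch3 had -0.03 and -0.05, and the ligands Dll1 and Jag2 -0.02 and 0.01. Among the enzymes that cleave the receptor, Adam10 had -0.10, Adam17 -0.00, Psen2 0.06, Psenen 0.08 and Aph1a -0.09, and the convertase Furin had 0.10. The fringe glycosyltransferases Rfng, Mfng and Lfng had 0.17, 0.07 and -0.01, Rbpj, the DNA-binding partner, 0.15, and the modifiers Dtx1, Dtx2 and Numb -0.01, 0.06 and -0.01. The target genes did not move together: Hes1 had 0.21 (adjusted p = 0.625) and Hey1 0.01, and Hes6, a relative that opposes Hes1, had -0.34 (adjusted p = 0.287) with every Cre plus liver below every control.

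Mbl2, a mannose-binding lectin secreted by hepatocytes that starts the lectin pathway of complement, read 8.52, 8.68, 8.42 and 8.76 in Cre minus livers and 9.51, 9.42, 9.30 and 9.81 in Cre plus livers. The difference was 0.92 (SE 0.10, adjusted p = 0.00541), and the groups lay well apart. It was the only call among 55 tested hepatocyte secreted proteins, whose median difference was 0.03, with 3 at an unadjusted p under 0.05. Igfbp1, C9 and Azgp1, the members with the next largest differences, had -0.61, -0.25 and 0.28, and none passed. Serpina3n, a protease inhibitor of the acute phase, and Hamp, the iron hormone hepcidin, were above all controls in all Cre plus livers, with 0.57 (adjusted p = 0.0879) and 0.41 (adjusted p = 0.239). The 26 tested acute phase genes had no call, 4 members at an unadjusted p under 0.05 and a median of 0.02. Their lowest members were the metallothioneins Mt2, at -1.0 (adjusted p = 0.195), and Mt1, at -0.89 (adjusted p = 0.464), with 1 low control each (Cre minus A, at 7.87 and 7.95) overlapping the Cre plus range.

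Eif5 was the only translation factor called. It encodes the factor that makes eIF2 hydrolyse GTP once the start codon is found. Its values were 8.23, 8.05, 8.06 and 8.06 in Cre minus and 8.65, 8.75, 8.48 and 8.63 in Cre plus livers, with Cre minus A standing above the other controls. The difference was 0.53 (SE 0.06, adjusted p = 0.00947), and it missed the threshold only without Cre plus B (adjusted p = 0.0508). The 38 tested initiation and elongation factors had a median of 0.02, and 7 had an unadjusted p under 0.05, 3 higher and 4 lower. Eif4a2 had -0.26, Eif1a 0.23 and the cap-binding inhibitor Eif4ebp2 0.22, none of them called.

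Other ribosomal protein genes showed no call by limma. Of 82 entries 29 were tested, 5 had an unadjusted p under 0.05, 22 had a positive difference, and the median was 0.10, with 0.01 within PHX2, 0.18 within PHX3 and 0.05 without Cre plus B. Rps19, a small subunit protein, read 8.99, 9.18, 9.21 and 9.21 in the controls against 9.48, 9.71, 9.40 and 9.51, a difference of 0.37 (adjusted p = 0.195). Rpsa, another protein of the 40S subunit, read 9.23, 9.27, 9.23 and 9.38 against 9.51, 9.66, 9.52 and 9.57, a difference of 0.29 (adjusted p = 0.164). Neither gene overlapped between genotypes. Rpl10a, of the large subunit, had -0.24 (adjusted p = 0.493), and Rps10 had 0.19. Among 50 tested ribosome biogenesis factors, 39 had a positive difference, the median was 0.06 and none passed (4 at an unadjusted p under 0.05). The largest were the snoRNP protein Nop56 at 0.29, Rrp1 at 0.23 and the GTPase Bms1 at 0.20, with Nop16 at -0.19.

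Aldh2, mitochondrial aldehyde dehydrogenase, and Gclc, the catalytic subunit that makes the first step of glutathione synthesis, were also higher. Aldh2 probe set 96058_s_at read 10.93, 10.66, 10.75 and 10.61 in Cre minus and 11.20, 11.26, 11.05 and 11.12 in Cre plus livers, a difference of 0.42 (adjusted p = 0.0262). A second Aldh2 probe set had 0.36 (adjusted p = 0.0347) and the last 0.29 (adjusted p = 0.164), both with overlapping groups. Gclc read 8.87, 8.30, 8.49 and 8.27 against 9.22, 9.36, 8.75 and 8.88, where Cre plus C overlapped the highest control. Its difference was 0.57 (SE 0.09, adjusted p = 0.0307) with batch in the model and lost its call without the batch term (adjusted p = 0.514). Leaving out any liver other than Cre minus A ended the call of 96058_s_at (adjusted p of up to 0.126, without Cre minus D), and leaving out any liver ended that of the second probe set. Both Aldh2 calls were also lost without the batch term (adjusted p = 0.184 and 0.994) and under quantile normalization. The Gclc call held only without Cre minus A or Cre plus C, with an adjusted p of up to 0.155 otherwise (without Cre plus B).

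Of 30 tested NRF2 targets, 6 had an unadjusted p under 0.05, 5 higher and 1 lower. Ephx1 and Gclc were the 2 calls among the 30, whose median difference was 0.10, and 19 of the 30 were positive. That median was 0.06 without Cre plus B and 0.18 without Cre plus A. Nfe2l2, the gene of NRF2 itself, had 0.58 (adjusted p = 0.239), with Cre minus C and Cre plus C in the overlap, and Gsta4, a glutathione transferase, had 0.44 (adjusted p = 0.582). The list of cytochrome P450 and drug metabolism genes had no call among 25 tested, 5 members at an unadjusted p under 0.05 and a median of 0.16, which was 0.08 without Cre plus C. Its largest members were uneven between livers: Cyp2b9 read 4.42, 4.94, 7.60 and 4.65 in Cre plus A to D, and Cyp3a13 6.83, 8.45, 9.15 and 6.84. Nr1i3, the receptor CAR that controls such genes, read 9.40, 9.88, 10.20 and 9.52 in the same livers. Cre plus C was the highest of the 4 for all 3 genes, and Cre plus B the next.

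Eloa, a subunit of the elongin transcription factor, rose by both of its probe sets, with differences of 0.38 and 0.41 (both adjusted p = 0.024). H1f2, a linker histone, had 0.54 (adjusted p = 0.0325), with Cre plus livers at 10.13, 10.07, 9.61 and 9.82 and controls between 9.32 and 9.42. Cdc34, a ubiquitin-conjugating enzyme, had 0.38 (adjusted p = 0.0407) by one probe set and 0.03 (adjusted p = 0.954) by the other. These calls were lost in most fits with a liver left out. Each Eloa call was lost whichever liver was left out, and those of H1f2 and Cdc34 held only without Cre plus C. With a liver left out, the Eloa differences were 0.36 to 0.40 and 0.37 to 0.44. Those of H1f2 were 0.49 to 0.61, and those of Cdc34 0.35 to 0.42. The highest adjusted p-values were 0.118 for Eloa and 0.179 for Cdc34 without Cre minus D, and 0.155 for H1f2 without Cre plus B. Without the batch term the calls of Eloa probe set 101943_at (adjusted p = 0.28), H1f2 (0.183) and Cdc34 (0.304) were lost. The unnamed probe sets 104646_at and 93536_at had differences of 1.26 (adjusted p = 0.022) and 0.89 (adjusted p = 0.0158).

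Besides Rps6, 5 probe sets were lower. The largest of these differences belonged to 93987_f_at, which the annotation assigns to Gm15421, to Rpl22l1, a paralogue of ribosomal protein L22, and to Orc5, a subunit of the origin recognition complex. It read 9.52, 9.79, 9.92 and 9.67 in Cre minus and 8.05, 8.28, 7.95 and 8.03 in Cre plus livers, a difference of -1.65 (SE 0.10, adjusted p = 6.94e-05), or 3.13-fold. The groups lay more than 1 log2 unit apart. Which of the 3 sequences gave this signal cannot be told from the probe set. An Orc5 probe set of its own, 100894_at, went the other way, with 5.64, 5.79, 5.46 and 5.61 against 5.92, 6.22, 6.01 and 5.93, a difference of 0.40 (adjusted p = 0.209).

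Plpp3, a membrane phosphatase that degrades lysophosphatidic acid, fell from 8.07, 8.41, 8.28 and 8.10 in Cre minus to 7.47, 7.20, 7.41 and 7.48 in Cre plus livers. The difference was -0.82 (SE 0.09, adjusted p = 0.00541), with no overlap and nearly the same size in both batches, -0.81 and -0.84. Usp24, a deubiquitinase, read 7.01, 7.02, 7.09 and 6.85 against 6.65, 6.41, 6.48 and 6.40, a difference of -0.51 (SE 0.07, adjusted p = 0.022), again without overlap. Its call was lost without Cre minus A, B or C or without Cre plus B or D, with an adjusted p of up to 0.0996.

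Mcm5, a subunit of the replicative helicase, was lower in Cre plus livers although the tissue was at rest. It read 7.49, 7.64, 7.33 and 7.68 in Cre minus livers A to D and 6.92, 6.93, 7.0 and 6.98 in Cre plus livers A to D. The Cre plus livers were tightly grouped (SD 0.03) and all below the lowest control. The difference was -0.58 (SE 0.06, adjusted p = 0.00541). A second Mcm5 probe set, 162102_r_at, had -0.05 (adjusted p = 0.907) and overlapping groups.

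Mcm5 was the only call among 31 tested DNA replication genes, but the list lay on one side. At an unadjusted p under 0.05, 12 members were lower and 1 higher. The median difference was -0.14 against 0.00 over all genes, and 27 of the 31 were negative. For 10 of them (32.3%) every Cre plus liver lay below every control, where 1.32% of all probe sets did so. As the list was chosen with earlier results of these data known, this contrast is no separate support. Pcna, the sliding clamp of the polymerases, read 6.89, 6.99, 6.59 and 6.85 against 6.15, 6.41, 6.36 and 6.15, a difference of -0.56 that just missed the threshold (adjusted p = 0.0663). The helicase subunits Mcm3, Mcm4 and Mcm7 had -0.34, -0.29 and -0.21, and the licensing factor Cdt1 -0.29, all without overlap and none called. Mcm10 had -0.35 with wide scatter. The list's mean was 6.42 to 6.61 in the controls and 6.37 to 6.43 in Cre plus livers, so the list as a whole overlapped at Cre minus C.

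Mitosis genes had no call among 26 tested, a median of -0.09 (-0.05 without Cre minus D), 24 negative differences and 9 members at an unadjusted p under 0.05. Stmn1, a microtubule destabiliser, had -0.66 (adjusted p = 0.239), Cdk1 -0.38 and the condensin subunit Smc4 -0.34. Cdk1 varied among the controls, at 6.35, 6.16, 5.78 and 6.65, while the Cre plus livers read 5.83, 5.91, 5.91 and 5.79. Pttg1, securin, had 0.28. The G1 cyclins and regulators, 15 tested, had a median of -0.02 and none passed.

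Ssr3, a subunit of the translocon-associated complex at the endoplasmic reticulum, was lower. Probe set 104248_at read 8.61, 8.94, 8.76 and 8.90 in Cre minus and 8.29, 8.12, 8.47 and 8.49 in Cre plus livers, a difference of -0.46 (SE 0.06, adjusted p = 0.0188). Its other probe sets had -0.60 (adjusted p = 0.0565) and -0.31 (adjusted p = 0.195). The call of 104248_at was lost without Cre minus B, C or D or without Cre plus B or D, with an adjusted p of up to 0.0842, and without the batch term (adjusted p = 0.228).

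Endoplasmic reticulum chaperones had no call, yet 22 of 23 tested were negative, with a median of -0.14 and 4 at an unadjusted p under 0.05. The co-chaperone Dnajb9 read 6.25, 6.59, 6.73 and 6.70 against 5.84, 6.16, 5.68 and 6.19, a difference of -0.60 (adjusted p = 0.212). Sec61b, of the protein-conducting channel, had -0.36, the disulphide isomerase Pdia3 -0.33 and the oxidase Ero1b -0.28. The mean of the 23 genes was 8.10 to 8.25 in the controls and 7.84 to 8.09 in Cre plus livers, with Cre plus C the lowest.

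**Figure D3:**
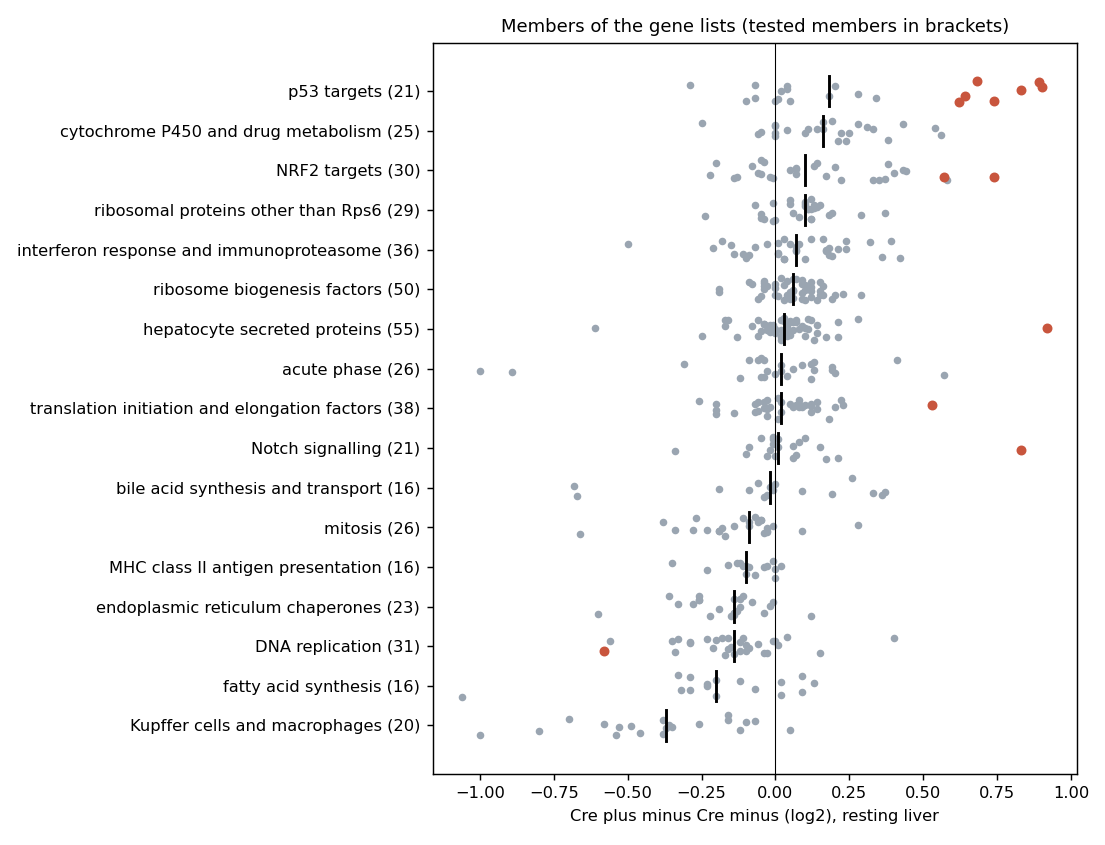
Each point is the log2 difference, Cre plus minus Cre minus, of 1 tested member of a gene list, red where called, and the black bar is the list's median. The p53 targets hold 7 red points on the right with a median of 0.18, and the Kupffer cell and macrophage markers lie left of 0 with a median of -0.37. Vertical scatter within a list only separates the points.

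Markers of Kupffer cells, the macrophages that line the liver sinusoids, lay on the low side in Cre plus livers, although none passed limma's test singly (14 at an unadjusted p under 0.05, all lower). Of 20 tested, 19 had a negative difference, and the median was -0.37, with -0.46 within PHX2 and -0.29 within PHX3. For 7 (35%) every Cre plus liver lay below every control, beside 1.32% of all probe sets. These markers too were chosen with earlier results known, so the contrast is no separate support. The mean of the list was 7.61, 7.63, 7.72 and 7.86 in Cre minus livers A to D and 7.56, 7.32, 7.18 and 7.21 in Cre plus livers A to D. Cre plus A was the highest of its group for this mean, and it also kept the most Rps6 signal. Cre plus C had the lowest mean, while Cre plus D had the least Rps6 signal. Whether the marker mean follows the Rps6 signal was not tested.

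Cd5l, a scavenger protein secreted by Kupffer cells, read 8.45, 8.16, 8.41 and 8.48 in the controls and 8.04, 7.40, 6.83 and 7.21 in Cre plus livers, a difference of -1.0 (adjusted p = 0.0596). Clec4f, a lectin found on mouse Kupffer cells, read 9.05, 8.57, 8.68 and 9.22 against 8.60, 8.01, 7.75 and 7.97, a difference of -0.80 (adjusted p = 0.209). Only Cre plus A overlapped the Clec4f controls. The complement genes C1qb, C1qa and C1qc had -0.70, -0.58 and -0.54, with an adjusted p of 0.0596 for C1qb. Other macrophage genes had differences nearer 0: Csf1r had -0.37, Adgre1 -0.26, Cd14 -0.12, Marco -0.10 and Lyz2 -0.07. The part of this shift in the differences of other genes was not tested.

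**Figure D4:**
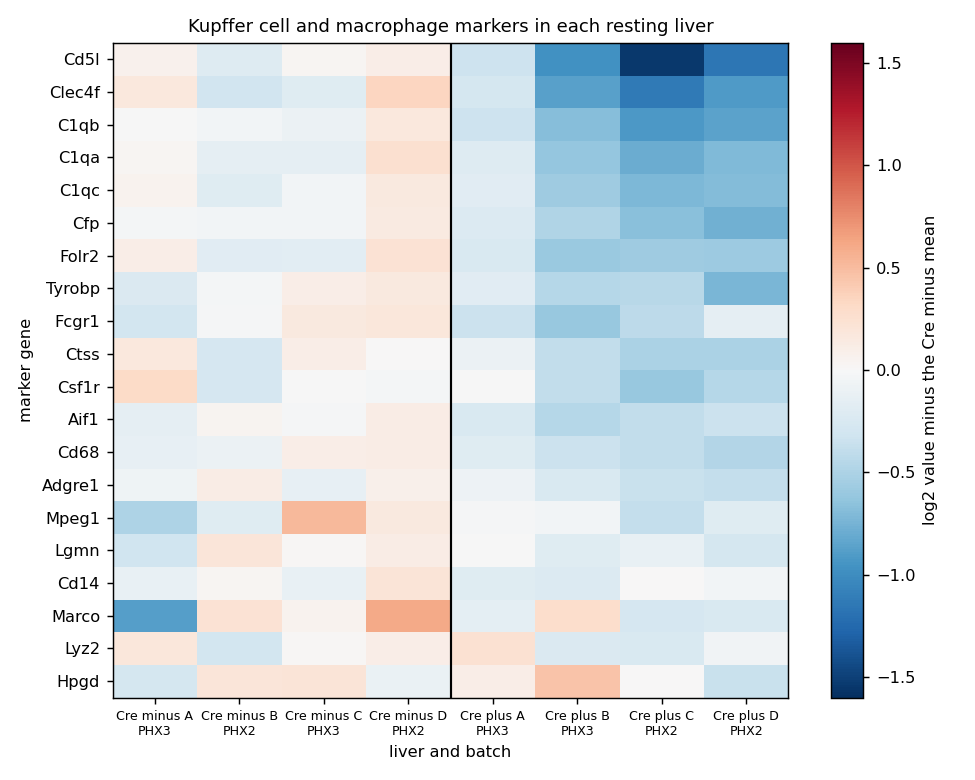
Rows are the 20 tested Kupffer cell and macrophage markers and columns the 8 livers with their batch. Colour gives the log2 value minus the mean of the 4 Cre minus livers, blue for lower. Cre plus B, C and D are blue over most rows, and Cre plus A is closer to the controls.

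Markers of other cells in the liver had no call, and between 0 and 4 members of each list had an unadjusted p under 0.05. The 16 tested MHC class II antigen presentation genes had a median of -0.10, which was -0.01 without Cre minus A, and Ifi30, a lysosomal thiol reductase, had -0.35 (adjusted p = 0.121) without overlap. Cre minus A stood out in this list, with Cd74 at 9.52 where the other controls read 7.43 to 7.87, and H2-Aa at 8.32 where they read 6.93 to 7.07. Medians were -0.06 for 13 neutrophil and monocyte genes, -0.04 for 13 T and NK cell genes, -0.08 for 12 B and plasma cell genes, 0.02 for 25 endothelial genes and 0.03 for 25 stellate cell and fibroblast genes. Cholangiocyte and progenitor genes, 8 tested, had -0.06, and erythroid genes, 13 tested, had -0.05. Platelet, pancreatic acinar and adipocyte genes had -0.05, -0.02 and -0.05 over 5, 8 and 8 genes.

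Interferon-responsive genes bear on the inducing agent, since both the transgene and the injected RNA act through interferon. None of 36 tested was called, 5 had an unadjusted p under 0.05, 26 had a positive difference and the median was 0.07. The antiviral genes Mx2, Ifit1 and Usp18 had 0.42 (adjusted p = 0.492), 0.39 (0.846) and 0.36 (0.8), and the chemokine Cxcl9 -0.50 (0.709). Cre plus D carried much of this, with Ifit1 at 7.74 where the other Cre plus livers read 6.67, 6.70 and 5.93, and without Cre plus D the median was -0.01.

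Metabolic lists held no call. Fatty acid synthesis genes, 16 tested with 2 at an unadjusted p under 0.05, had a median of -0.20, which was -0.06 without Cre plus A. Thrsp, a lipogenic protein that follows carbohydrate feeding, read between 10.88 and 11.97 in the controls and between 9.27 and 10.80 in Cre plus livers, a difference of -1.06 (adjusted p = 0.276) without overlap. Pklr, liver pyruvate kinase, had -0.33 (adjusted p = 0.142), and Scd1 and Fasn had -0.32 and -0.29 with groups that overlapped. Bile acid genes, 16 tested, had a median of -0.02, with Cyp7a1, the rate-limiting enzyme of bile acid synthesis, at -0.68 (adjusted p = 0.646) and Cyp8b1 at -0.67 (adjusted p = 0.486). The nuclear receptor Nr0b2, which represses Cyp7a1, had 0.36, and the exporter Abcc2 0.37. Medians lay between -0.09 and 0.03 for cholesterol synthesis, fatty acid oxidation, the urea cycle and amino acid catabolism, gluconeogenesis and glycolysis control, the circadian clock, ATF4 targets, fetal liver genes and the constitutive proteasome. Of 17 tested gluconeogenesis and glycolysis genes, 5 had an unadjusted p under 0.05, 1 higher and 4 lower. The lowest of the 17 was G6pc, at -0.69 (adjusted p = 0.256) with overlapping groups. In the other lists of that sentence between 0 and 4 members were at that threshold.

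The differences of the resting liver were then set beside those at 20, 30 and 40 h after hepatectomy, in a fit over all 32 arrays with 9254 probe sets tested. The test was of the difference itself, the genotype difference at the later time minus that at 0 h, and all 3 share the 0 h livers. It called, by limma, 0 probe sets at 20 h (0%, with 132 at an unadjusted p under 0.05), 1 at 30 h (0.0108%) and 54 at 40 h (0.584%). Of the 26 probe sets called at rest, 23 had the same sign at 20 h, 23 at 30 h and 25 at 40 h. Rps6 itself had -4.34, -4.55 and -4.10 at the later times against -4.30 at rest.

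Notch1 was the probe set called at 30 h. Its genotype difference was 0.83 (SE 0.09) in resting liver, then 0.18, -0.03 and 0.14 at 20, 30 and 40 h. The change from 0 h was -0.65 at 20 h (adjusted p = 0.281), -0.86 at 30 h (adjusted p = 0.00839) and -0.69 at 40 h (adjusted p = 0.00379). The Notch1 rise of the resting livers was therefore smaller after the operation at 30 and 40 h. Mcm5 went the other way: its difference was -0.58 in resting liver and -0.59, -1.39 and -2.45 at the later times, a change from 0 h of -1.87 at 40 h (adjusted p = 0.0266). That Mcm5 call was lost without Cre minus A (adjusted p = 0.0718), Cre minus C (0.0989), Cre plus C (0.0676) or Cre plus D (0.0758) of the resting livers. Pcna had -0.56 at 0 h and -1.95 at 40 h, a change of -1.39 (adjusted p = 0.00849).

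No other probe set called at rest changed its genotype difference past the threshold in that fit, although with array weights 10 more of these changes passed, such as Eif5 at 40 h (1.23, adjusted p = 0.000309) and Notch1 at 20 h (-0.71, adjusted p = 0.0265). Among p53 targets, Cdkn1a by 94881_at had 2.13 in resting liver and 1.03, 1.75 and 1.76 at the later times. Its difference at 20 h had an SE of 0.42 and did not pass limma's test (adjusted p = 0.838). Phlda3 had 0.83, 0.97, 0.74 and 0.92 at the 4 times, Mdm2 0.62, 0.62, 0.74 and 0.87, and Ephx1 0.74, 0.60, 0.63 and 0.63. Zmat3 had 0.64, 0.37, 0.40 and 0.73, Plk2 0.68, 0.29, 0.92 and 0.58, and Ccng1 0.89, 0.75, 0.34 and 0.80. The lowest values, of Zmat3 and Plk2 at 20 h and Ccng1 at 30 h, did not pass limma's test (adjusted p = 0.523, 0.999 and 0.714). Eif5 had 0.53, 0.69, 1.0 and 1.72, and its change from 0 h to 40 h was 1.19 (adjusted p = 0.0607). Plpp3 stayed lower, at -0.82, -1.0, -1.45 and -0.76. For the Kupffer cell gene Clec4f the differences were -0.80, -1.51, -1.15 and -1.43, and the adjusted p of the change from 0 h was 0.841 or more at each time.

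**Figure D5:**
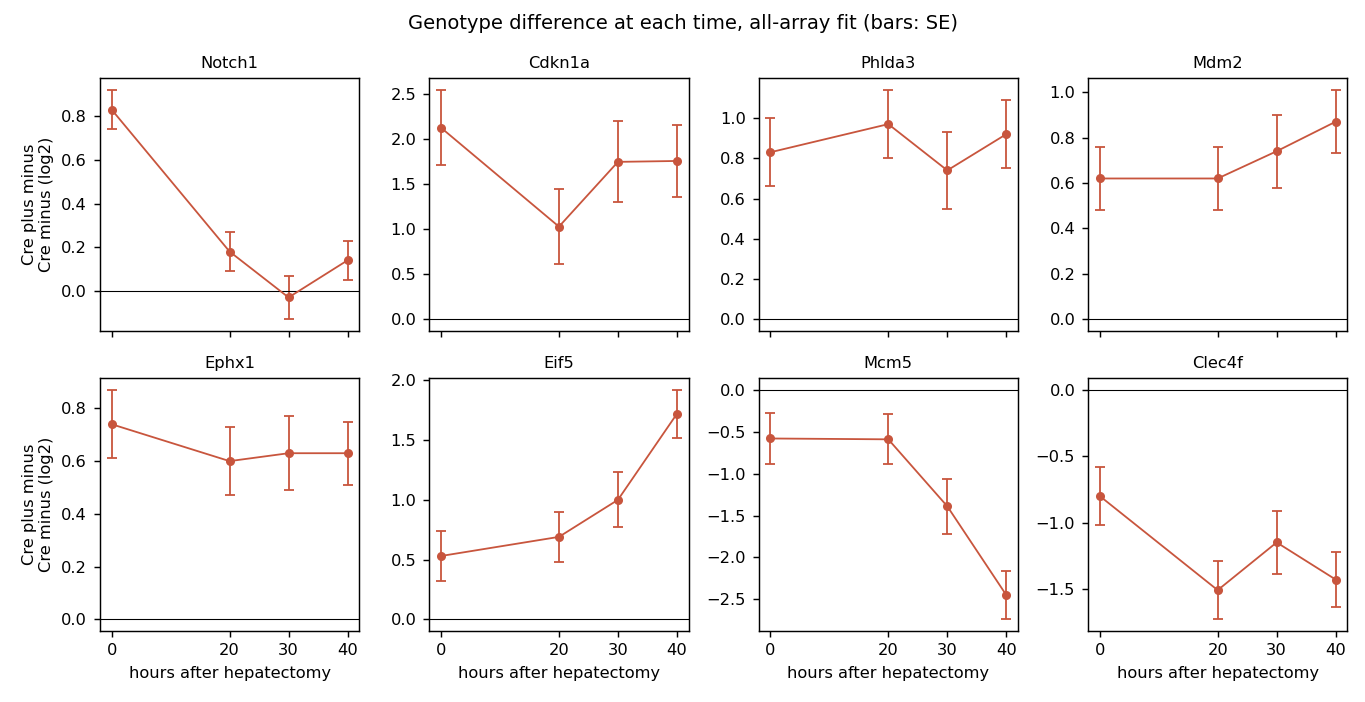
Each panel gives the genotype difference (log2, Cre plus minus Cre minus) of 1 probe set at 0, 20, 30 and 40 h after hepatectomy, with its SE, from the fit over all 32 arrays. Notch1 starts at 0.83 and is near 0 at 30 h, and Mcm5 reaches -2.45 at 40 h. The p53 targets plotted, Cdkn1a, Phlda3, Mdm2 and Ephx1, have differences above 0 at each time, not all of which passed limma's test. Vertical axes differ between panels.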

How the data were processed

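Total liver RNA was measured on a 1-colour Affymetrix array. The authors deposited log2 expression values. Per the submitters' processing notes these came from RMA; the sources used here give neither its version nor whether arrays of both batches entered one normalization. The log base was taken as 2 from the values, which ran from 2.45 to 14.1 with array medians of 5.93 to 5.98. Precision is limited by the number of arrays.

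A probe set other than the 66 AFFX controls was tested when it lay above its array's 30th percentile on at least 3 of the 8 arrays (8803 of 12422). Genotype and batch were terms of a 2-sided limma fit (version 3.58.1 under R 4.3.3, lmFit then eBayes) on the 8 arrays alone, and probe sets were called at a Benjamini-Hochberg adjusted p under 0.05 over all probe sets tested. Changes over time were tested in a fit of all 32 arrays. Only the fit of the 8 arrays was tested on simulated data. Platform annotation gave 10833 probe sets 1 gene, 396 several and 1193 none. Probe sets with several genes name none, apart from that of Rps6.

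In 36 gene lists, 1271 entries had 927 with a probe set of their own and 794 tested, each gene by the brightest of its probe sets. Lists are described by counts and medians, with no set test. The members and lists were chosen with earlier results of these data known. Genes were named by a rule: Rps6, every called probe set with 1 gene and the other probe sets of those genes, all tested Notch genes, and up to 4 members of each of 17 lists by the size of the difference. Further p53, Kupffer cell and replication genes, liver markers, G6pc and 2 unnamed probe sets were named after their values were seen.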

Additional observations from a re-analysis of the deposited data

Results flagged for a closer look

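The genotype difference at rest differed from a later one for 2 called genes. For Notch1 the difference at 30 h minus that at 0 h was -0.86 (adjusted p = 0.00839), and at 40 h it was -0.69 (adjusted p = 0.00379). For Mcm5 the difference at 40 h minus that at 0 h was -1.87 (adjusted p = 0.0266).

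In 212 groups of 4 livers (106 probe sets named or their companions), 13 had 1 liver far from the other 3 by Dixon's criterion. Chance flags about 1 in 20 groups. Cre minus A was the highest control for Eif5 (8.23), Cyp3a13 (7.96) and H2-Aa (8.32), and the lowest for Rps19 (8.99) and Nop16 (6.44). Cre minus B was the lowest control for the second Notch1 probe set (4.80) and Pttg1 (7.57) and the highest for Psenen (7.15). Cre minus C was the highest control for Eif1a (8.22) and Serpina3n (11.10) and the lowest for Bms1 (4.80). Cre plus B was the lowest of its group for Adam10 (5.07), and Cre plus C the highest for Cyp2b9 (7.60), where the other 3 read 4.42 to 4.94.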

How the results depend on the processing

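Rps6 kept its direction and call in all 20 other settings, with -4.58 to -4.03 within batches and -4.42 to -4.14 with a liver left out. All 519 differences of called probe sets computed under the 20 alternatives had the reported direction. The alternatives reuse the livers by which these probe sets were chosen, so this is no separate support. The count of 26 was 7 with a replicate block, 6 with the spread shared over all 32 arrays, 5 within PHX2 and 10 within PHX3, and it ran from 11 to 29 with a liver left out. The fits within a batch hold 4 livers, and the cause of the other drops was not tested. The count was 19 without the batch term and 25 to 30 in the other 7 settings (3 filters, centring, quantile normalization, array weights, trend with robust).

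Whether the replicate letters pair the livers could not be settled, and letters B and C span both batches. Deviations of same-lettered livers from their group means correlated at 0.222, -0.24, -0.238 and 0.409 for A to D. Those values still hold the batch difference. After batch was removed they were -0.127, 0.209, 0.194 and 0.007. With the letter as a replicate block, Rps6 had -4.30 (adjusted p = 0.00125), and Cdkn1a 94881_at, 93987_f_at, Phlda3, Notch1, Mbl2 and 93536_at kept their calls. The change of the Mcm5 difference from 0 h to 40 h was -1.82 under the replicate block (adjusted p = 0.0609). Signals near the array floor, as for Ccng1, give only compressed differences.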
